A study of Mus musculus with 6 samples.

Results

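Transcripts of immunoglobulin heavy chain variable genes were counted in sorted mouse blood stem and progenitor cells. The members are the Ighv genes that GENCODE M21 annotates as functional variable genes (biotype IG_V_gene), matched on the Ensembl identifier, with at least 10 reads summed over 6 libraries. Of 113 such genes 54 qualified, out of 55487 genes in the files. Another 32 had 1 to 9 reads and 27 had 0. The members held 17539 reads and the genes below the minimum held 130. Ighv1-62-3, just inside the minimum, had 4, 4 and 1 reads in wild type and 1, 0 and 0 in the knockout. Ighv1-50, just outside, had 8 reads in all, 1 in the first knockout library and 7 in the third.

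Bone marrow came from 3 wild type mice (WT) and 3 mice lacking Brm (BrmKO, Brm-/- in the design text), a separate mouse for each library. The labels give the strain as C56Bl/6 for both groups and no age or treatment. Brm is the older name of Smarca2, which encodes the motor subunit of 1 form of the SWI/SNF chromatin remodeller. The sources used here do not give the part of the gene that was removed. Cells negative for lineage markers and positive for CKIT and SCA1 (LSK cells) were sorted, a gate meant to hold stem cells and multipotent progenitors and to leave out mature B cells and plasma cells.

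A heavy chain variable domain is built by joining 1 V gene to a D and a J segment, a reaction started by the RAG recombinase in early B lineage cells. A mature B cell or plasma cell therefore carries the transcript of essentially 1 rearranged V gene, and a plasma cell makes very large amounts of it. V genes that are not yet rearranged are also transcribed, at a low level, in early lymphoid cells while the locus is open. A read count per gene does not show whether a read came from a rearranged or an unrearranged V gene.

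The libraries held 28.01 to 36.46 M reads in genes, so 3 reads, the most that a count of 0 allows, stood for 0.0823 to 0.107 CPM (reads scaled to a fixed library size). Smarca2 had 4270 to 6932 reads per WT library and 761 to 958 per BrmKO library, and it fell in BrmKO (log2 fold change -2.72 ± 0.13 SE, edgeR adjusted p = 2.97e-05). All 4 genes listed for LSK cells (Kit, Ly6a, Cd34 and Flt3) were present. They summed to 2352 to 2523 CPM in WT and 2561 to 2636 CPM in BrmKO. Of these only Kit and Ly6a stand for the sorted CKIT and SCA1. Ly6a was a small part of the sum, with 18.7 to 31.1 CPM in WT and 26.0 to 35.7 CPM in BrmKO. The third library of each genotype stood apart, with 8.41% and 9.29% of reads outside genes against 5.79% to 6.61% in the other 4. Pairs of libraries differed by 14.3 times their sampling noise or more (chi-square per degree of freedom), so none was a copy of another.

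The sequences of Ighv1-81, the marker of the group, and of its relatives are shown first, because the results turn on whether reads of such similar genes can be told apart. Ighv1-81 (ENSMUSG00000094689) lies on the minus strand of GRCm38 at chr12:115920279-115920712, with exons at 115920667 to 115920712 and 115920279 to 115920583. The window covers bases 153 to 272 of its transcript, chr12:115920358-115920477, inside the second exon, which encodes most of the variable domain. It holds the second framework region and the second antigen-contacting loop (CDR2). Ighv1-85, Ighv1-77 and Ighv1-76 are its closest relatives among 183 Ighv transcripts, Ighv1-80 and Ighv1-82 are its nearest functional neighbours on the chromosome, and Ighv1-74 is a member compared with it below. Sequences are from the GENCODE M21 transcripts of GRCm38, 5′ to 3′, and capitals mark bases that differ from Ighv1-81.
Ighv1-81: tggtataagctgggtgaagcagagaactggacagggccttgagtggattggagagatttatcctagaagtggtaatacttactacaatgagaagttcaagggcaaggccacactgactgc
Ighv1-85: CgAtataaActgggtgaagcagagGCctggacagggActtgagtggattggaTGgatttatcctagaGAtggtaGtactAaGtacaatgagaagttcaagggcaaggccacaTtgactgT
Ighv1-77: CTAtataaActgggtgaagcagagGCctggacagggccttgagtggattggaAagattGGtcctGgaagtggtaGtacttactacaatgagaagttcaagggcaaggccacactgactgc
Ighv1-76: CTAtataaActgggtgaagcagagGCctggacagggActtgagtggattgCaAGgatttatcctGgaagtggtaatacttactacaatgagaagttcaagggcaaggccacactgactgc
Ighv1-80: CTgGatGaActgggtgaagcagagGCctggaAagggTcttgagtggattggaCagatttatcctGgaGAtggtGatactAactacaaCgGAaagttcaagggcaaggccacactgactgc
Ighv1-82: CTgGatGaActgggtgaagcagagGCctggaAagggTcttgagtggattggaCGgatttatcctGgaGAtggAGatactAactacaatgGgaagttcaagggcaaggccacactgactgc
Ighv1-74: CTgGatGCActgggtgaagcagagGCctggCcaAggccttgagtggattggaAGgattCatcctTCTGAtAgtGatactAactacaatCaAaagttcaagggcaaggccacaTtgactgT

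The closest relative, Ighv1-85, differed from Ighv1-81 at 15 of the 120 bases shown and matched it at 92.88% of the whole transcript (25 differences). Ighv1-77 matched at 91.45% and Ighv1-76 at 90.88%. Every stretch of 100 bases of the Ighv1-81 transcript (100%), and 88.41% of stretches of 50 bases, was found in no other gene's GENCODE transcripts. Its counts can thus be told from those of other V genes for reads of that length, although the sources used here do not give the read length. Other members are less distinct. Only 2.58% of the 50-base stretches of Ighv1-71 and 7.49% of those of Ighv1-72 were unique, since Ighv1-71 matches Ighv1-62-2 at 99.72% and Ighv1-72 matches Ighv1-62-3 at 99.24%. Both names were chosen after their values were seen, and counts of both are uncertain because the counting drops reads that align equally well to several places. Ighv1-62-1 also overlaps a long noncoding RNA gene on the other strand, Gm19331, and the library kit does not mark strand.

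Ighv transcripts were rare in every library, and no member passed the test between the genotypes. The 54 members together had 4921, 4390 and 1294 reads in WT replicates 1 to 3 and 2183, 1642 and 3109 reads in BrmKO replicates 1 to 3. They made up 0.00462% to 0.0135% of reads in genes. Scaled to library size (edgeR's TMM method), the summed level was 136, 135 and 45.5 CPM in WT and 73.0, 57.2 and 90.4 CPM in BrmKO. The first and second WT libraries were highest and the third WT library lowest, so the groups overlapped. Group means were 105 ± 52.0 CPM in WT and 73.5 ± 16.6 CPM in BrmKO (SD, n = 3, as for all means below). The ratio of these means, -0.52 on the log2 scale, lay between -0.88 and -0.30 with any 1 library left out. It was -1.06 without the third library of each genotype, a setting chosen after the data were seen.

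Of the 54 members 20 had enough reads in enough libraries for edgeR's quasi-likelihood test and 34 did not. The 3 members with most reads, Ighv1-22, Ighv1-59 and Ighv5-16, were among those left out, because too few libraries held enough of their reads. At an adjusted p under 0.05, 0 members were called higher and 0 lower in BrmKO, where 0.14% of all 15691 tested genes were called. At an unadjusted p under 0.05 there were 2 higher (Ighv1-81 and Ighv2-9-1) and 2 lower (Ighv1-74 and Ighv1-82), 20% of those tested, where 5.85% of all tested genes fell under that value. These shares are not an even comparison. Ighv1-81 was chosen with this contrast known. Ighv2-9-1 had 0 reads in WT and could be tested only through its BrmKO reads. Over the 20 tested members the log2 fold change was above 0 in 9 and below 0 in 11, with a median of -0.18 against -0.01 over all tested genes. Precision was low, with a median SE of 1.07 log2 units for the members and 0.163 for all tested genes.

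Every BrmKO library lay above every WT library in 2 tested members, Ighv1-81 and Ighv2-9-1, a pattern seen in 5.69% of all tested genes. The limits given above for these 2 genes hold for this count too. Every BrmKO library lay below every WT library in 2 tested members, Ighv1-74 and, with TMM scaling but not on unscaled totals, Ighv1-15, a pattern seen in 5.37% of all tested genes. Over all 54 members the numbers were 2 and 4, with Ighv1-62-1 and Ighv1-62-3 added at 21 and 10 reads in all.

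**Figure D1:**
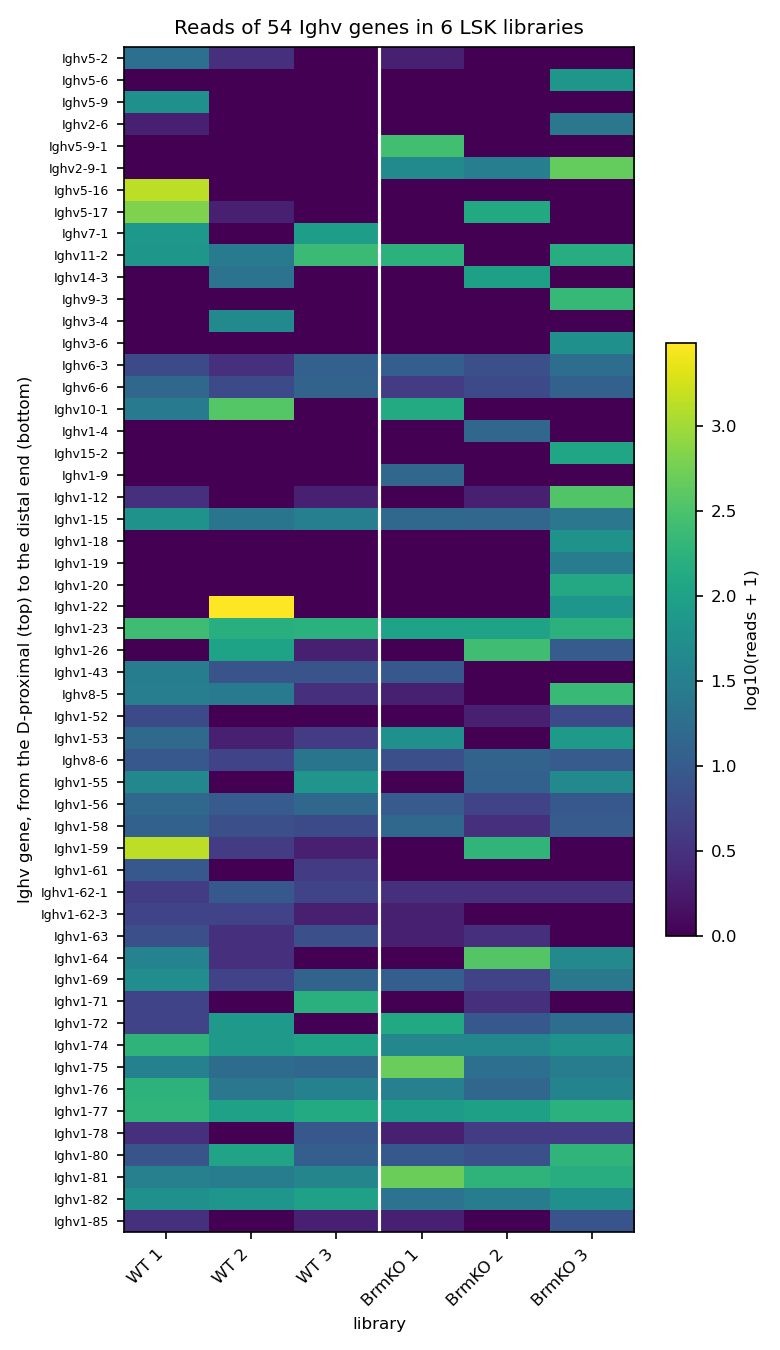
Reads of each of the 54 Ighv genes (rows, ordered along the locus from the end nearest the D segments) in each of the 6 libraries (columns), as log10 of reads plus 1. Many rows are bright in a single library, while 16 genes, 12 of them in the distal part of the locus, have reads in all 6.

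The libraries drew their Ighv reads from different genes. In WT replicate 1 the leading genes were Ighv5-16 with 1384 reads and Ighv1-59 with 1376, 28.1% and 28.0% of that library's Ighv reads. In WT replicate 2 a single gene, Ighv1-22, had 3068 reads or 69.9%. In WT replicate 3 Ighv11-2 led with 235 reads (18.2%). A different gene thus led each WT library.

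The same held among the BrmKO libraries. Ighv1-81 led in BrmKO replicate 1 with 511 reads (23.4%), closely followed by Ighv1-75 with 488. Ighv1-64 led in BrmKO replicate 2 with 358 reads (21.8%). Ighv2-9-1 led in BrmKO replicate 3 with 465 reads (15.0%), the smallest leading share of any library. To reach 90% of a library's Ighv reads took 11, 7 and 12 genes in the WT libraries and 10, 10 and 19 genes in the BrmKO libraries.

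Of the 54 members 13 had reads in 1 library alone, and 17 had at least 90% of their CPM in 1 library. These 17 held 6116 reads. By the library where they were highest they numbered 2, 2 and 1 in WT and 2, 1 and 9 in BrmKO, so BrmKO replicate 3 alone held 9 of them. The 3 members with most reads, Ighv1-22, Ighv1-59 and Ighv5-16, held 6092 reads. Per kilobase of exon their mean levels over 6 libraries were 45.7, 21.3 and 16.8 CPM, above Ighv1-81 at 14.7 and Ighv1-23 at 14.1 CPM per kilobase, but each came from a few libraries. Ighv1-22 had 3068 reads in WT replicate 2, 67 in BrmKO replicate 3 and 0 elsewhere. Ighv1-59 had 1376, 3 and 1 reads in WT and 0, 193 and 0 in BrmKO.

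Ighv5-16 had reads in WT replicate 1 only. Against the 3 reads that a group of zeros allows it was at least 439-fold lower in BrmKO, a value that rests on 1 mouse. Ighv7-1 had 72, 0 and 89 reads in WT and 0 in each BrmKO library, at least 51.1-fold lower, and it was the only such gene with 30 or more reads that was seen in more than 1 WT library. Ighv5-9 (55 reads, WT replicate 1) and Ighv3-4 (45 reads, WT replicate 2) were at least 17.5-fold and 14.3-fold lower.

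In the other direction 11 members had 0 reads in WT. Ighv2-9-1 had 44, 30 and 465 reads in the BrmKO libraries and 0 in WT, at least 189-fold higher, and among those with 30 or more reads it alone was seen in more than 1 BrmKO library. Its test did not pass (edgeR adjusted p = 0.587). Ighv5-9-1 had 265 reads, all in BrmKO replicate 1 (at least 92.8-fold higher). Another 6 genes had their reads in BrmKO replicate 3 alone, Ighv9-3 with 214, Ighv1-20 with 128, Ighv15-2 with 112, Ighv5-6 with 70, Ighv1-18 with 58 and Ighv3-6 with 56. Their bounds ran from 19.6-fold for Ighv3-6 to 74.9-fold for Ighv9-3, and each rests on that library.

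**Figure D2:**
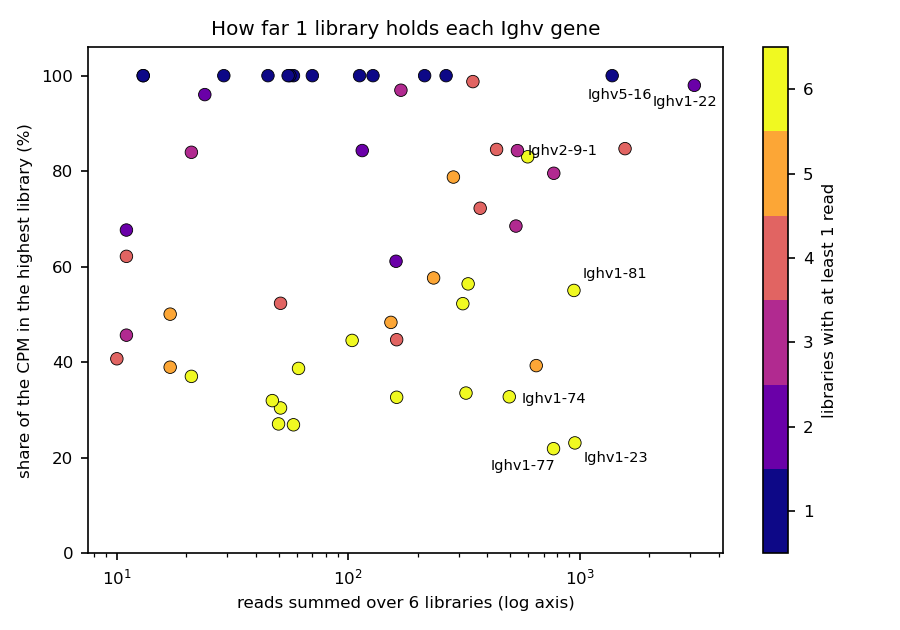
Each point is 1 of the 54 Ighv genes, placed by its reads summed over 6 libraries (log axis) and by the percentage of its summed CPM found in its highest library, and coloured by the number of libraries with at least 1 read. Points at 100% have reads in 1 library, and Ighv1-23 and Ighv1-77 lie lowest, with 23.1% and 21.9%.

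A second set, the 16 genes with reads in all 6 libraries, included the most even members. The set comprised Ighv1-15, Ighv1-23, Ighv1-56, Ighv1-58, Ighv1-62-1, Ighv1-69, Ighv1-74, Ighv1-75, Ighv1-76, Ighv1-77, Ighv1-80, Ighv1-81, Ighv1-82, Ighv6-3, Ighv6-6 and Ighv8-6. Without Ighv1-81 their summed level was 23.8 ± 5.29 CPM (WT) and 21.4 ± 8.25 CPM (BrmKO), and 8 of the 11 tested had a log2 fold change below 0. In 12 of the 16 no library held as much as 50% of the CPM. Those 12 summed to 23.2, 14.1 and 21.6 CPM in WT and 10.5, 10.9 and 16.3 CPM in BrmKO, overlapping between WT replicate 2 and BrmKO replicate 3, and 7 of the 8 tested lay below 0. The 38 members with 0 reads in some library summed to 80.7 ± 52.2 CPM in WT and 42.9 ± 17.7 CPM in BrmKO. These groupings were made after the values were seen and were not tested.

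Members of this set lay mostly at 1 end of the locus. Cut into 3 by gene order, the part nearest the D segments held 13 members, the middle 16 and the distal part 25. The members with reads in all 6 libraries numbered 0, 4 and 12 in that order, and those with at least 90% of their CPM in 1 library 7, 9 and 1. The distal part summed to 35.5 ± 24.5 CPM in WT and 38.5 ± 7.58 CPM in BrmKO. The part nearest the D segments summed to 25.4 ± 31.9 and 17.2 ± 8.97 CPM, and the middle to 44.6 ± 60.9 and 17.8 ± 10.7 CPM, so the groups overlapped in each. The cut was also made after the values were seen.

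By V family, Ighv1 (also called J558), the largest mouse family, dominated. It held 34 of the members from 53 annotated genes and 12076 reads, 68.9% of the total. Its summed level was 71.7, 120 and 32.5 CPM in WT and 51.7, 47.5 and 51.2 CPM in BrmKO. The 3 BrmKO libraries lay within a narrow band inside the WT range, at 50.1 ± 2.27 CPM against 74.6 ± 43.7 CPM.

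Ighv5 came next with 6 members of 10 genes and 2569 reads (14.6%). The WT libraries had 58.0, 0.0923 and 0 CPM of it and the BrmKO libraries 8.89, 4.53 and 2.04 CPM, so nearly all of its WT signal was in replicate 1, through Ighv5-16 and Ighv5-17. For Ighv2 the WT libraries had 0.0276, 0 and 0 CPM and the BrmKO libraries 1.47, 1.05 and 14.2 CPM. It was the only 1 of the 12 families with members in which the groups did not overlap. Among all single genes tested 5.69% lay wholly above and 5.37% wholly below in BrmKO. The family sum was not tested. Ighv2-9-1, which did not pass (edgeR adjusted p = 0.587), held 539 of its 563 reads.

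The other families were each carried by 1 or 2 members. Ighv11-2, the only member of its family, had 70, 26 and 235 reads in WT and 172, 0 and 147 in BrmKO (log2 fold change -0.12 ± 1.43 SE). Ighv10-1 had 26, 370 and 0 reads in WT and 135, 0 and 0 in BrmKO. Ighv8-5 held 285 of the 346 reads of its family, 225 of them in BrmKO replicate 3. In none of these 3 genes did the groups separate. Ighv9 and Ighv15 were seen in BrmKO replicate 3 alone, through Ighv9-3 and Ighv15-2, and Ighv3 in 2 libraries, 1 of each genotype. Ighv14-3 had 20 reads in WT replicate 2 and 95 in BrmKO replicate 2. Ighv6 was low but even, with 0.215 to 0.809 CPM in WT and 0.383 to 0.814 CPM in BrmKO, and Ighv6-3 had 51 of its 101 reads. Ighv4, Ighv12, Ighv13 and Ighv16 had no member.

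**Figure D3:**
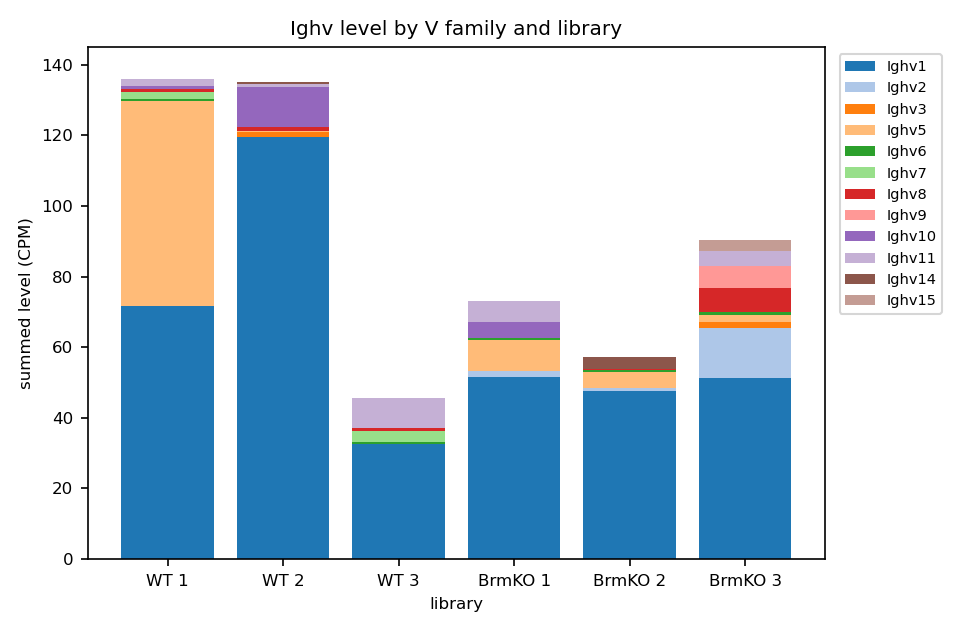
Summed level of the Ighv members in each library in CPM, stacked by V family. Ighv1 is the largest part of every bar, Ighv5 is large in WT 1 alone, and Ighv2 is visible only in the BrmKO bars.

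Ighv1-81 had the smallest p of all members and was higher in each BrmKO library than in any WT library, without passing. It had 32, 29 and 38 reads in WT and 511, 186 and 150 in BrmKO. The levels were 0.884, 0.892 and 1.34 CPM in WT and 17.1, 6.48 and 4.36 CPM in BrmKO, so the lowest BrmKO library was above the highest WT library. The means were 1.04 ± 0.259 and 9.31 ± 6.82 CPM, with a log2 fold change of 3.17 ± 0.51 SE (edgeR adjusted p = 0.0746). Among members it ranked 17, 11 and 9 by reads in WT and 1, 4 and 8 in BrmKO. It took 0.650%, 0.661% and 2.94% of the Ighv reads of the WT libraries and 23.4%, 11.3% and 4.82% of those of the BrmKO libraries. The gene was chosen with this contrast known, so these values are not independent support for its difference.

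The call depended on the setting. With BrmKO replicate 1 left out, where it was highest, the log2 fold change was 2.39 (adjusted p = 0.133), and without BrmKO replicate 3 it was 3.51 and passed (0.0326). It passed with DESeq2 (2.08e-08) and without a filter on low counts (0.0369).

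Its neighbours on the chromosome did not share the pattern. Ighv1-80, which starts 7.935 kb away, had 7, 107 and 10 reads in WT and 8, 6 and 192 in BrmKO (log2 fold change 0.67 ± 1.52 SE). It was high in 1 library of each genotype, so the groups overlapped. Ighv1-82, 32.3 kb away on the distal side, had 55, 66 and 98 reads in WT and 20, 28 and 56 in BrmKO. Only WT replicate 1 and BrmKO replicate 3 crossed, at 1.52 and 1.63 CPM, and the log2 fold change was -1.08 ± 0.46 SE (edgeR adjusted p = 0.818). Without WT replicate 3 it was -0.70.

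Further out, Ighv1-78 had 17 reads in all and Ighv1-84 had 4. The pseudogenes Ighv1-79 and Ighv1-83 had log2 fold changes of -0.70 ± 0.63 and -0.29 ± 0.48 SE. Both had reads in all 6 libraries and overlapped between the genotypes. Set against Ighv1-82 in the same library, Ighv1-81 had 0.582, 0.439 and 0.388 reads per Ighv1-82 read in WT and 25.6, 6.64 and 2.68 in BrmKO. Against Ighv1-77, its second closest relative, the ratios were 0.168, 0.293 and 0.281 in WT and 6.16, 1.96 and 0.888 in BrmKO. Against Ighv1-80, its nearest neighbour, they were 4.57, 0.271 and 3.80 in WT and 63.9, 31.0 and 0.781 in BrmKO. These ratios do not depend on library size. The groups did not overlap for Ighv1-82 and Ighv1-77 and did overlap for Ighv1-80, where BrmKO replicate 3 lay below WT replicates 1 and 3. Every ratio holds Ighv1-81, which was already separate between the groups and was chosen with this contrast known. The ratios are thus no further support for its difference.

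The closest relatives also differed from Ighv1-81 in their values. Ighv1-85 had 11 reads in all. Ighv1-77 had 191, 99 and 135 reads in WT and 83, 95 and 169 in BrmKO (log2 fold change -0.25 ± 0.32 SE). It was among the most even members, and its groups overlapped widely. Ighv1-76 had 176, 23 and 33 reads in WT and 32, 13 and 36 in BrmKO (-1.39 ± 0.70 SE), with WT replicate 1 apart from the other 5 libraries.

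Ighv1-74 had 182, 76 and 100 reads in WT and 40, 41 and 58 in BrmKO. The levels were 3.63 ± 1.35 and 1.48 ± 0.181 CPM, every BrmKO library was below every WT library, and the log2 fold change was -1.29 ± 0.35 SE without passing (edgeR adjusted p = 0.435). With a single library left out its log2 fold change stayed between -1.52 and -0.98. Ighv1-15 had 59, 22 and 31 reads in WT and 14, 13 and 23 in BrmKO (-1.09 ± 0.50 SE, adjusted p = 0.849). By reads WT replicate 2 and BrmKO replicate 3 differed by 1, so the separation was narrow, at 0.677 and 0.669 CPM, and on unscaled totals they overlapped at 0.667 and 0.691 CPM. Ighv1-23, the most evenly spread of the abundant members with Ighv1-77, had 249, 158 and 169 reads in WT and 104, 101 and 174 in BrmKO (-0.55 ± 0.26 SE, adjusted p = 0.860). Its groups overlapped, at 4.86 CPM in WT replicate 2 and 5.06 CPM in BrmKO replicate 3. It matches Ighv1-15 at 98.01% of its transcript, so some of its reads may be shared or dropped.

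The other members with positive log2 fold changes and small p each rested on 1 or 2 libraries. Ighv1-75 had 33, 16 and 14 reads in WT and 488, 18 and 28 in BrmKO (3.21 ± 1.38 SE, edgeR adjusted p = 0.860), so BrmKO replicate 1 alone was high. Ighv1-53 had 15, 1 and 3 reads in WT and 56, 0 and 78 in BrmKO (2.85 ± 1.28 SE, adjusted p = 0.841). Ighv1-64 had 35, 2 and 0 reads in WT and 0, 358 and 43 in BrmKO (3.66 ± 2.12 SE, adjusted p = 0.960). In all 3 genes the genotypes overlapped.

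**Figure D4:**
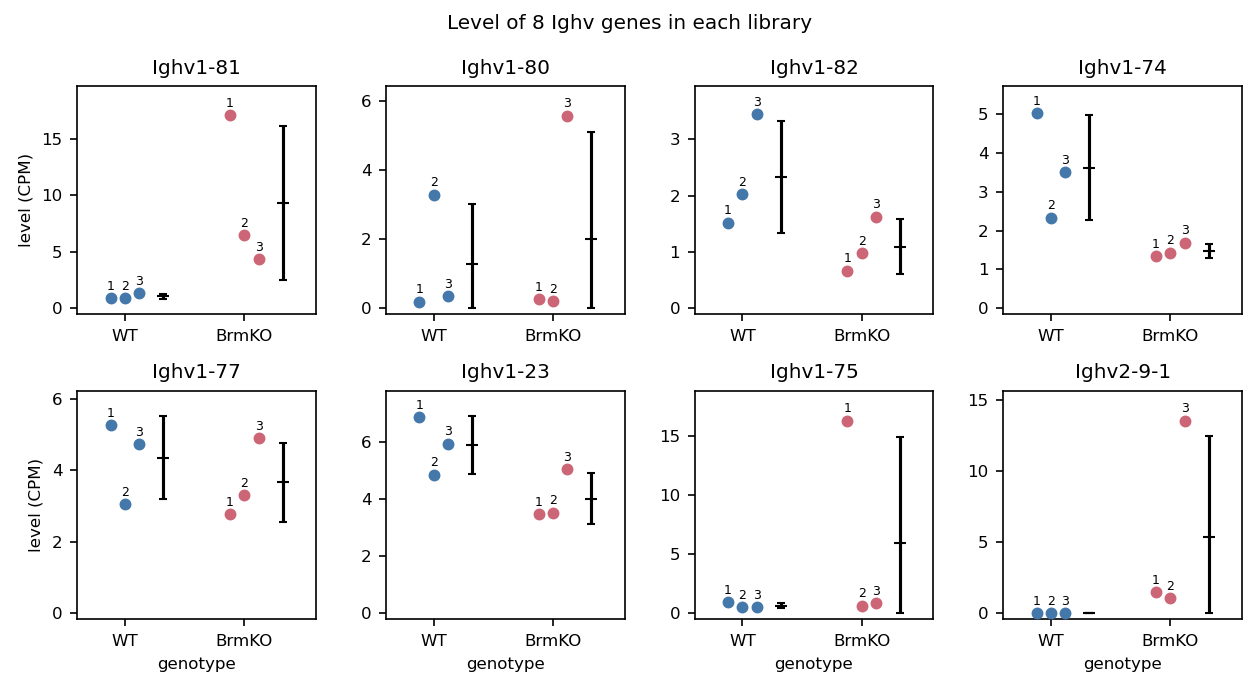
Level in CPM of 8 Ighv genes in each library, with points numbered by replicate and, to their right, the mean with bars of 1 SD (3 libraries a group, bars stopped at 0). All BrmKO points lie above all WT points for Ighv1-81 and Ighv2-9-1 and below them for Ighv1-74, while Ighv1-80 and Ighv1-75 are each set by 1 or 2 libraries.

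The other parts of the heavy chain gave a partly different picture. Ighm, the mu constant region that follows the V gene in the first heavy chain transcripts, had 46739, 20396 and 19593 reads in WT and 16626, 16380 and 21434 in BrmKO. The level was 869 ± 366 CPM in WT and 583 ± 35.5 CPM in BrmKO, with WT replicate 1 far above the rest (log2 fold change -0.58 ± 0.25 SE, edgeR adjusted p = 0.828). All BrmKO libraries lay below all WT libraries by a narrow margin, 623 CPM in BrmKO replicate 3 against 628 CPM in WT replicate 2, and on unscaled totals these overlapped at 644 and 618 CPM. For each 100 Ighm reads there were 10.5, 21.5 and 6.60 Ighv reads in WT and 13.1, 10.02 and 14.5 in BrmKO, that is 12.9 ± 7.73 and 12.6 ± 2.30. The WT libraries were both the highest and the lowest. The D segments, summed, had only 63, 47 and 45 reads in WT and 24, 26 and 34 in BrmKO. Their means were 1.59 ± 0.147 CPM (WT) and 0.899 ± 0.0934 CPM (BrmKO), and the groups did not overlap. Among all single genes tested 5.37% lay wholly below in BrmKO, and the D segment sum was not tested. The heavy J segments had 415 to 503 reads in WT and 367 to 503 in BrmKO.

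Igha, the alpha constant region of antibodies made at mucosal surfaces, and Jchain, the joining chain of secreted polymeric antibody, are known as abundant transcripts of antibody-secreting cells. Igha had 503, 13045 and 3 reads in WT and 7503, 5966 and 6636 in BrmKO. The 3 BrmKO libraries were alike, and the WT libraries ran from nearly none to the most. Jchain had 4266, 4247 and 951 reads in WT and 2054, 1503 and 4754 in BrmKO. WT replicate 3 was lowest in Ighv, Igha and Jchain alike. Their part in the Ighv values was not tested.

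Light chain transcripts varied from mouse to mouse as the Ighv genes did. Iglc3, a lambda constant gene, had 1878, 3216 and 3 reads in WT and 0, 2 and 9 in BrmKO, too uneven for the main test. It passed without WT replicate 3 (edgeR adjusted p = 0.00156). Iglc1, another lambda constant gene, had 20, 719 and 74 reads in WT and 1614, 2 and 1645 in BrmKO. Iglv1 had 3048, 5999 and 66 reads in WT and 1194, 9 and 1470 in BrmKO. The Igkv genes together had 2948, 519 and 1472 reads in WT and 1747, 1743 and 3703 in BrmKO. Their leading gene was Igkv8-30, Igkv10-96 and Igkv4-55 in the WT libraries and Igkv4-61, Igkv10-96 and Igkv8-30 in the BrmKO libraries, so 2 of these led in a library of each genotype.

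**Figure D5:**
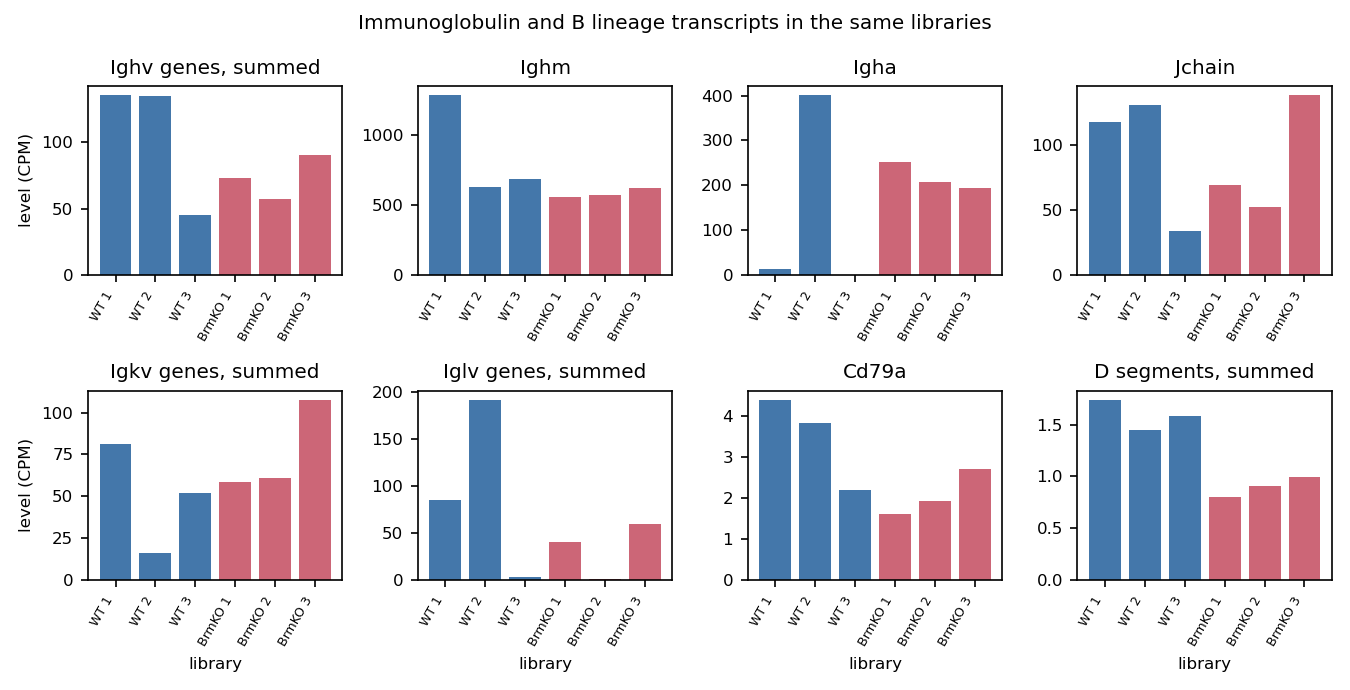
Level in CPM of summed Ighv genes, of Ighm, Igha, Jchain and Cd79a, and of summed Igkv genes, Iglv genes and D segments in each library, WT in blue and BrmKO in red (each panel has its own axis, starting at 0). The D segments are lower in all BrmKO bars, Ighm by a margin that unscaled totals remove, and Igha is near 0 in WT 3 and highest in WT 2.

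The LSK gate should leave out B lineage cells, yet all 14 B lineage markers had reads. They summed to 80.95 to 90.9 CPM in WT and 71.2 to 85.6 CPM in BrmKO. Most of this was Cd79b, with 51.3 to 72.1 CPM in WT and 51.8 to 64.6 CPM in BrmKO. None was at 0 over the 6 libraries together. Ms4a1 (28 reads in all) had 0 in WT replicate 2 and BrmKO replicates 1 and 2. Spib (33 reads in all) had 0 in WT replicates 1 and 2, and Fcer2a (67 reads) in WT replicate 2. Of the 10 markers tested 0 passed, 8 lay below 0 and the median log2 fold change was -0.29. Cd79a, a signalling chain of the B cell receptor, and the adaptor Blnk had log2 fold changes of -0.74 ± 0.36 and -0.28 ± 0.21 SE. Cd79a had 159, 124 and 62 reads in WT and 48, 55 and 93 in BrmKO, and the groups overlapped. In bulk RNA fewer cells of a type and less RNA per cell cannot be told apart, and the part of B lineage cells in the Ighv values was not tested.

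Plasma cell markers, 10 of 10 with reads, summed to 466 to 693 CPM in WT and 523 to 594 CPM in BrmKO. Most of this was Xbp1 (193 to 289 CPM in WT, 203 to 225 in BrmKO) and Txndc5 (201 to 245 and 197 to 233). Mzb1 had 12 reads in all and Tnfrsf17 had 48, and Prdm1 had 0 in WT replicate 1. Of the 8 markers tested 0 passed and 6 lay below 0 (median -0.14). Irf4, Sdc1 and Xbp1, which encode a transcription factor, a surface proteoglycan and a regulator of secretion, had the smallest p, at -0.68 ± 0.42, -0.16 ± 0.12 and -0.18 ± 0.14 SE. Of 12 T and NK markers 11 had reads and Cd3e was at 0. They summed to 248 to 287 CPM in WT and 247 to 254 CPM in BrmKO, nearly all of it Nkg7 (225 to 258 and 225 to 235 CPM). Of 8 markers tested 0 passed, with 4 above and 4 below 0 (median 0.12). Trbc1, a T cell receptor constant gene, stood at -0.86 ± 0.21 SE and passed with DESeq2 (adjusted p = 0.0208) and with no other setting run. Ncr1, an NK cell receptor, stood at 2.22 ± 0.55 SE, and Cd8a, a T cell co-receptor, at 1.92 ± 1.12 SE.

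Of the genes that act in heavy chain assembly none passed. The surrogate light chain, which pairs with a new heavy chain before a light chain is made, had 4 of 4 tested genes below 0 (median -0.57), led by Igll1 at -0.45 ± 0.29 SE, Vpreb3 at -0.85 ± 0.55 SE and Vpreb2 at -0.69 ± 0.56 SE, with 0 called. Rag1 and Rag2, the recombinase, stood at -0.53 ± 0.39 and -0.22 ± 0.24 SE. Dntt, the polymerase TdT that adds bases at the joins, was abundant, with 503 ± 75.2 CPM in the WT libraries and 575 ± 16.4 CPM in the BrmKO libraries (0.19 ± 0.11 SE). Of 9 end joining genes 0 passed, with 6 above and 3 below 0 (median 0.05). Prkdc, Lig4 and Dclre1c, which encode a DNA-dependent kinase, a ligase and the nuclease Artemis, had the smallest p, at -0.32 ± 0.17, 0.71 ± 0.39 and -0.19 ± 0.13 SE.

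Of 15 regulators of the heavy chain locus 0 passed, with 9 above and 6 below 0 (median 0.01). Ikzf3, an Ikaros family factor of B cells, had 32, 21 and 26 reads in WT and 4, 12 and 16 in BrmKO (-1.25 ± 0.58 SE, edgeR adjusted p = 0.850). Pou2af1, the coactivator OBF-1 of immunoglobulin promoters, had 50, 47 and 49 reads in WT and 17, 7 and 46 in BrmKO (-1.06 ± 0.57 SE, adjusted p = 0.913). In both the BrmKO libraries lay below the WT libraries in CPM, but for Pou2af1 they overlapped on unscaled totals. Among the other tested genes of all lists, Ighm, Irf4, Vpreb1 and Trbc1 also lay wholly below in BrmKO. Cd4, Ncr1 and Flt3 lay wholly above. Over all tested genes 5.37% lay wholly below and 5.69% wholly above. Rad21, a cohesin subunit, stood at 0.18 ± 0.12 SE. Among 5 tested heavy constant genes 0 passed, with 2 above and 3 below 0 (median -0.15), and after Ighm the smallest p were those of Ighg2b (-0.48 ± 0.50 SE) and Ighe (0.95 ± 1.04 SE). Among 3 tested light constant genes 0 passed and all lay above 0 (median 0.99), with Igkc at 0.59 ± 0.56, Iglc1 at 2.01 ± 2.04 and Iglc2 at 0.99 ± 1.80 SE. All 4 genes listed for LSK cells lay above 0 (median 0.10) and 0 passed, with Ly6a, Flt3 and Cd34 at 0.31 ± 0.19, 0.12 ± 0.08 and 0.07 ± 0.08 SE.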

How the data were processed

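RNA was measured in 6 libraries made with a SMART-Seq v4 kit, which carries no molecular identifiers and does not mark strand. For each library the authors deposited raw counts, the number of reads assigned to each Ensembl gene. Per the submitters' processing notes, bcl2fastq, FastQC, STAR, HTSeq and DESeq2 were used with the build GRCm38. The sources used here do not give their versions, the strand setting, the annotation release or the read length. HTSeq drops reads that align equally well to several places. The 5 rows that name no gene were left out. Names, biotypes, positions and transcript sequences came from GENCODE M21, which matched 55227 of 55487 genes.

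BrmKO was compared with WT by edgeR's quasi-likelihood test (edgeR 4.0.16, limma 3.58.1, R 4.3.3; TMM factors, filterByExpr, robust fit, no covariate) on the whole table. P-values were adjusted by Benjamini-Hochberg over 15691 genes and called under 0.05. CPM values use TMM-scaled totals. The test was checked on simulated data. DESeq2 1.42.0, RLE scaling, no low-count filter, a replicate block and leaving out libraries were alternatives. Floors cover counting error only, and p-values measure the spread between 3 mice a group.

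Named were Ighv1-81, the 10 members highest in mean CPM, up to 5 members a direction by p, the member with most reads in each family and library, members with 0 reads in a genotype and 30 or more in the other, 3 neighbours and 3 closest sequences on Ighv1-81, 1 gene on each side of the read minimum, and up to 3 genes by p from each list. Genes that made up most of a list's sum, that had few reads or whose groups did not overlap were named as well. The members and lists were chosen with earlier results of these data known. The own result of 1 list gene is not reported here.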

Additional observations from a re-analysis of the deposited data

How the results depend on the processing

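With edgeR as described 0 members passed, with 4 at an unadjusted p under 0.05. There was 1 with no low-count filter and 1 with DESeq2 (Ighv1-81 in both), where 4 members had no adjusted p, and 0 to 1 with a library left out (Ighv1-81 without BrmKO replicate 3). From the gene lists 0 passed, and 1 did with DESeq2 (Trbc1). With a library left out 0 to 1 passed (Iglc3 without WT replicate 3). Iglc3 also passed without replicate 3 of both genotypes, a setting chosen after the data were seen. In both settings it could be tested only through its reads in WT replicates 1 and 2. The log2 fold change of Ighv1-81 was 3.17 with no low-count filter (adjusted p = 0.0369), 3.17 with DESeq2 (2.08e-08), 2.39 to 3.51 with 1 library left out and 3.72 without both replicates numbered 3 (0.0567). The cause of these changes was not tested.

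The replicate numbers are shared between genotypes, and no label says that they pair mice. The deviations of same-numbered libraries correlated at 0.05, 0.01 and 0.19. WT replicates 1 and 3 each correlated best with the same-numbered BrmKO library, and WT replicate 2 with BrmKO replicate 1 (0.17). With such low and mixed values the numbers were not taken to pair the mice. With the number as a replicate block 1 member passed (Ighv2-9-1, adjusted p = 0.0181), and Ighv1-81 had a log2 fold change of 2.95 (0.0927).

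Of 152 recomputed values 142 kept their direction and side of the threshold or moved by less than the spread between libraries. V family differences made up 96 of the 152. Leaving out 1 library of 3 cannot move such a difference by as much as that spread. The count of 142 is thus no measure of their stability. The log2 ratio of Ighv reads per Ighm read was within that spread but changed sign, to 0.55 without WT replicate 2 and 0.10 without BrmKO replicate 2. The difference in summed level between genotypes also changed sign with a library left out in 7 of the 12 V families (Ighv3, Ighv5, Ighv6, Ighv8, Ighv10, Ighv11 and Ighv14). For Ighv5 it went from -14.2 to 5.11 CPM without WT replicate 1, for Ighv10 from -2.53 to 1.15 CPM without WT replicate 2 and for Ighv8 from 1.54 to -0.62 CPM without BrmKO replicate 3. On unscaled totals, compared after the data were seen, the group ranges of Ighv1-15, Ighm and Pou2af1 overlapped. The 34 untested members had too few reads or reads in too few libraries.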
